A study of Mus musculus with 5 samples.

Results

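The naïve library held 6389 kept cells from a sort for lung group 2 innate lymphoid cells (ILC2s). Of these, 477 held at least 1 unique molecular identifier (UMI, the tag that marks 1 captured transcript) of *Il13*. These 477 cells, 7.47% of the naïve library (95% exact binomial interval 6.83 to 8.14), are described here as *Il13*-positive naïve ILC2s. The 5 libraries of the series held 16530 kept cells in all. Cells were kept with 200 or more detected genes and under 5% of UMIs from mitochondrial genes. They were compared with 4606 naïve cells of the same library that had at least 2000 UMIs, a UMI of *Il1rl1* (which encodes ST2, the IL-33 receptor) and no *Il13* UMI. The cells were chosen by their *Il13* UMI count, so the level of *Il13* is a description and not a finding.

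The lungs came from female wild-type C57BL/6 mice, and ILC2s were enriched and sorted as lineage-negative ST2+ CD127+ Thy1.2+ CD45+ cells. The naïve mice carried no tumour and their cells were sequenced fresh, without cytokine treatment. The other 4 libraries came from mice with subcutaneous TC1 tumours, a transformed C57BL/6 lung epithelial line, at week 2 and week 3, with 1 library for each week and state. The ta-non-activated cells were fresh, whereas the ta-activated cells were cultured for a week with IL-2, IL-33 and TSLP. The naïve group is 1 library, so differences between its cells have no replicate and carry no p-value, and intervals cover counting error only. Lungs of several mice were pooled for each library, so mice cannot be told apart.

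ILC2s are tissue lymphocytes without rearranged antigen receptors that respond to the alarmins IL-33, IL-25 and TSLP. Once triggered, they secrete IL-5, which sustains eosinophils, and IL-13, which acts on epithelium, goblet cells and smooth muscle. Amphiregulin, encoded by *Areg*, and GM-CSF, encoded by *Csf2*, are further products of these cells. In mice, many resting ILC2s are known to carry *Il5* transcripts, while *Il13* transcription is tied more closely to activation.

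*Il13* (ENSMUSG00000020383) lies on the minus strand of chromosome 11 at 53631324 to 53634702 of GRCm38 and has 4 exons. *Il4* (ENSMUSG00000000869; 53602982 to 53618669, minus strand) and *Il5* (ENSMUSG00000036117; 53720794 to 53725106, plus strand) flank it, with *Rad50* (53649519 to 53707319) between *Il13* and *Il5*. *Csf2* (ENSMUSG00000018916; 54247271 to 54249667, minus strand) lies further along the same chromosome. *Areg* (ENSMUSG00000029378) is on chromosome 5 at 91139599 to 91148432. The promoters of *Il13*, *Il5* and *Areg* are shown because *Il5* and *Areg* were higher in *Il13*-positive cells of all 5 libraries and their calls held in 11 of 12 alternatives. *Csf2* did so too, but the RefSeq and GENCODE starts of this gene differ, so its promoter is not shown. Each run is the 250 bases before the RefSeq start of the gene, 5′ to 3′ on the strand of the gene (GRCm38.p6), at chr11:53634703-53634952 for *Il13*, chr11:53720544-53720793 for *Il5* and chr5:91139349-91139598 for *Areg*. Capitals mark AGATA, a core bound by GATA factors, and GGAAA, a core bound by NFAT, each on either strand.
Il13: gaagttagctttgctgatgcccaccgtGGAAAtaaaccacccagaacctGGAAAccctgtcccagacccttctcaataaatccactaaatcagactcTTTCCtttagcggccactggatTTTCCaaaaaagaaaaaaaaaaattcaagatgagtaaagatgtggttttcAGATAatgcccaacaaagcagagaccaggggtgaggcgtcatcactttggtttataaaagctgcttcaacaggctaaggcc
Il5: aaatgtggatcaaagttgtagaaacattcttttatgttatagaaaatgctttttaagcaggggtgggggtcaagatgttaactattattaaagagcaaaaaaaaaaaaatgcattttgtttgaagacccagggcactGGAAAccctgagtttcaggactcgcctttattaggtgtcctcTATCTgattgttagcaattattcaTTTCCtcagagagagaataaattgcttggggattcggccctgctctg
Areg: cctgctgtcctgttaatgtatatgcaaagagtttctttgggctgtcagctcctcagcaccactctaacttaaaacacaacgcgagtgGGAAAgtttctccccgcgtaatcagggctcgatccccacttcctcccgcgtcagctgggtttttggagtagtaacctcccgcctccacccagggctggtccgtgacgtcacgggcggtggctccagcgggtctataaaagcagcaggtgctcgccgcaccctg
*Il13* and *Il5* each held 1 AGATA and *Areg* held none, while 26.6% of 32851 RefSeq promoters of this length held at least 1. GGAAA occurred 4 times before *Il13*, 2 times before *Il5* and 1 time before *Areg*, and at least 1 time in 55.6% of all promoters. The AP-1 motif TGANTCA, held by 6.75% of promoters, was in none of the 3. No marked motif overlapped another, and the matches are letters only, with no binding measured.

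*Il13* UMIs were unevenly spread among the 477 cells. The median was 2 UMIs and the maximum was 39. A single UMI was found in 202 cells, 2 to 4 UMIs in 153 and 5 or more in 122. The 48 cells with most *Il13* held 39.7% of its 1802 UMIs. The cells just inside the threshold, with 1 UMI, had a median of 5504 UMIs in all, against 4616.5 in the comparison cells just outside it. All 477 together had a median of 5617 UMIs (interquartile range 4356 to 7793), so deeper cells were over-represented. When each cell of at least 2000 UMIs was thinned to 2000 UMIs, 279 of 6147 naïve cells (4.54%) kept an *Il13* UMI.

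**Figure D1:**
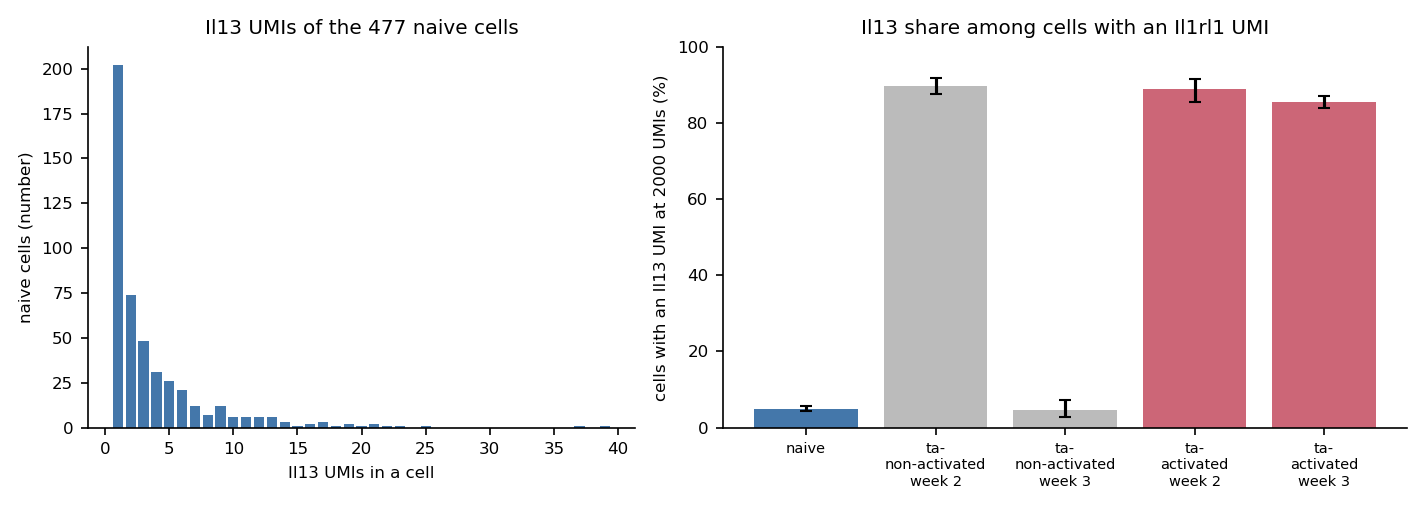
Left, number of naïve cells (y axis) with each number of *Il13* UMIs (x axis) among the 477 positive cells, of which 202 had 1 UMI and the highest 39. Right, percentage of cells with an *Il13* UMI after thinning to 2000 UMIs, among cells with an *Il1rl1* UMI, in each of the 5 libraries with exact binomial 95% intervals. The naïve library (4.99%) and the ta-non-activated week 3 library (4.64%) sit far below the other 3 (85.6% to 89.9%).

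Background from free RNA was read from naïve cells that should lack *Il13*. After the same thinning, 1 of 444 cells with neither *Gata3* nor *Il1rl1* had an *Il13* UMI (0.225%, upper exact limit 1.248%), at a median depth of 4366.5 UMIs against 4613 in all naïve cells thinned. Among type 17-like cells it was 4 of 302 (1.32%, upper limit 3.36%). In whole cells, the depth at which the 477 were chosen, these shares were 5 of 444 (1.13%, upper limit 2.61%) and 8 of 302 (2.65%), against 7.47% of all naïve cells. Part of the 202 cells with a single UMI may thus be background, and how many was not tested. After thinning, no *Il13* UMI was found in 51 endothelial-like or 67 NK- or ILC1-like cells. In whole cells, 1 of the 67 NK- or ILC1-like cells had an *Il13* UMI. Both sets are too small to bear on the background, with upper limits of 6.98% and 5.36% after thinning. Among naïve cells with an *Il1rl1* UMI the share was 4.99% (251 of 5034). The ta-non-activated week 3 library gave 4.64% (17 of 366), and the intervals of both overlapped. The ta-non-activated week 2 library (89.9%) and the ta-activated libraries (88.9% at week 2, 85.6% at week 3) stood apart, so the 2 ta-non-activated libraries differed widely from each other. In these 3 libraries, 48.8%, 22.7% and 47.4% of cells with neither *Gata3* nor *Il1rl1* also had an *Il13* UMI, in the same order. Barcodes of the naïve library recurred 5 to 11 times in each of the others.

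The ILC2 label held for most *Il13*-positive cells. *Gata3*, which encodes the lineage factor of ILC2s, was detected in 450 of 477 (94.3%), and *Il1rl1* in 431 (90.4%). The level of *Gata3* was 946 counts per 1000000 UMIs (CPM) against 844 in the comparison cells. *Il1rl1*, which was required only of the comparison cells, was at 831 against 948 CPM. Of 9 mast cell and basophil markers, 7 were at 0 in the positive cells, and *Cpa3*, the most abundant, was at 23.3 against 33.2 CPM. Their summed level was 28.4 against 38.6 CPM. Cells in which 3 or more of 10 genes of the T cell receptor and CD3 were detected made up 43.8% of the positive and 35.6% of the comparison cells. The summed level of those 10 genes was 1231 against 1124 CPM, with *Trbc2* the most abundant (509 CPM). Markers of T cell subsets were scarce but higher in the positive cells, summing to 16.9 against 4.73 CPM, of which *Cd40lg* made up 14.4 CPM in positive cells, while *Cd4* and *Cd8a* were at 0. Their part in the results was not tested. Ribosomal genes took 22.6% and 23.4% of UMIs, and median mitochondrial shares were 2.33% and 2.40%.

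Among the 4605 genes that reached 30 CPM in either set of naïve cells, 145 (3.15%) were at least 1.5-fold higher in *Il13*-positive cells with exact Poisson intervals that did not overlap. A further 96 (2.08%) were lower by the same rule, and the median fold over all 4605 genes was 0.964. A gene could pass this minimum through the positive cells alone. With the minimum set on both sets together, an alternative chosen after seeing the data, 95 of 4432 genes were higher (2.14%) and 87 lower. Cytokine genes, regulators induced by activation, class II genes and cell cycle genes supplied most of the 15 largest folds. Of these 15 genes, only *Ccl1*, *Csf2* and *Il5* reached 30 CPM in comparison cells too. The others entered the ranking through the positive cells alone. Of the 15 other cytokine genes of the fixed list that reached 30 CPM, 9 were higher, none was lower and 6 were not called, with a median fold of 2.09. These cytokine counts were the same with the minimum on both sets together. All of these are differences within 1 library and were not tested.

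*Il4*, the neighbour of *Il13* and the cytokine of B cell class switching, had the largest fold of the list. It was at 98.1 CPM (87.4 to 110) in positive and 21.6 CPM (19.8 to 23.6) in comparison cells, a fold of 4.54. The transcript remained scarce, with an *Il4* UMI in 79 of 477 positive cells and 61.6% of its UMIs in 10 of them. *Ccl1*, a ligand of CCR8, was at 1450 against 467 CPM (3.11-fold). *Csf2* was at 931 against 337 CPM (2.76-fold). *Il5* was at 437 against 163 CPM (2.68-fold). These 3 transcripts were widespread, found in 282, 272 and 233 of the 477 cells. *Lif* (2.30-fold), *Areg* (2.20-fold, 2040 against 929 CPM), *Cxcl2* (2.10-fold), *Il2* (2.09-fold) and *Ccl5* (2.07-fold) completed the 9. *Ccl5* was at 0.82-fold when comparison cells were not required to have *Il1rl1*. *Tnf* (0.87-fold), *Ltb* (0.82-fold) and the alarmin-induced neuropeptide gene *Calca* (1.47-fold) were not called.

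**Figure D2:**
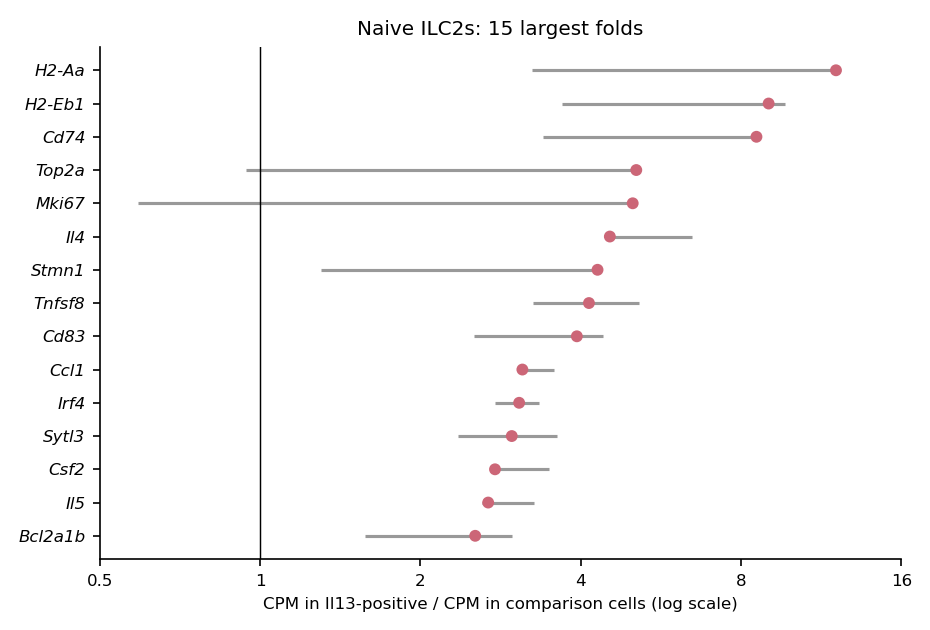
Fold of CPM in *Il13*-positive over comparison naïve cells (x axis, log scale) for the 15 genes with the largest folds named by the fixed rule. Points are the values reported and grey lines span the 10 alternative settings. *Il4*, *H2-Eb1*, *Cd74*, *Tnfsf8*, *H2-Aa*, *Ccl1*, *Irf4*, *Csf2*, *Il5* and *Cd83* stay above 2.5-fold, whereas the lines of *Top2a* and *Mki67* cross 1.

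*Il5*, *Csf2*, *Areg* and *Cxcl2* were higher in each class of cells with more *Il13* UMIs, while several other cytokine genes were not. *Il5* was at 163 CPM in cells with no *Il13* UMI, 301 with 1, 407 with 2 to 4 and 681 with 5 or more. *Csf2* was at 337, 586, 1040 and 1334 CPM in the same order. *Areg* was at 929, 1463, 2324 and 2597 CPM, and *Cxcl2* at 757, 1210, 1467 and 2323 CPM. The intervals of adjacent classes did not overlap for any of these 4 genes. *Il4* was at 21.6, 40.7, 141 and 136 CPM, so its last 2 classes did not differ beyond counting error. *Ccl1* likewise levelled off, at 467, 1193, 1603 and 1669 CPM. *Ccl5* was highest with 1 *Il13* UMI, at 61.8, 141, 129 and 108 CPM, though the intervals of its positive classes overlapped. *Tnf* was at 108, 92.2, 95.4 and 96.0 CPM, and *Ltb*, which encodes lymphotoxin beta, at 612, 530, 426 and 549 CPM. Neither thus followed *Il13*. *Tnfsf8*, which encodes CD30 ligand, was at 24.6, 67.6, 71.1 and 191 CPM, but it was detected in 38 of 477 positive cells and 10 of them held 77.4% of its UMIs. *Txnip*, a glucose-sensitive gene high in resting lymphocytes, ran the other way at 199, 88.4, 61.9 and 56.9 CPM.

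Single positive cells held more of the other cytokine genes than comparison cells did. After thinning to 2000 UMIs, at least 3 of 8 genes (*Il4*, *Il5*, *Csf2*, *Areg*, *Ccl1*, *Cxcl2*, *Il2*, *Lif*) were detected in 268 of 474 positive cells (56.5%, 51.9 to 61.1). The share in comparison cells was 1133 of 4606 (24.6%, 23.4 to 25.9). None of the 8 was detected in 5.70% of positive and 23.4% of comparison cells. By *Il13* class, the share with at least 3 was 42.2% for 1 UMI, 62.1% for 2 to 4 and 73.0% for 5 or more. The 8 genes are all among the 9 already called higher in positive cells, so a larger share follows from that choice, and whether they were detected together more often than their single shares give was not tested.

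**Figure D3:**
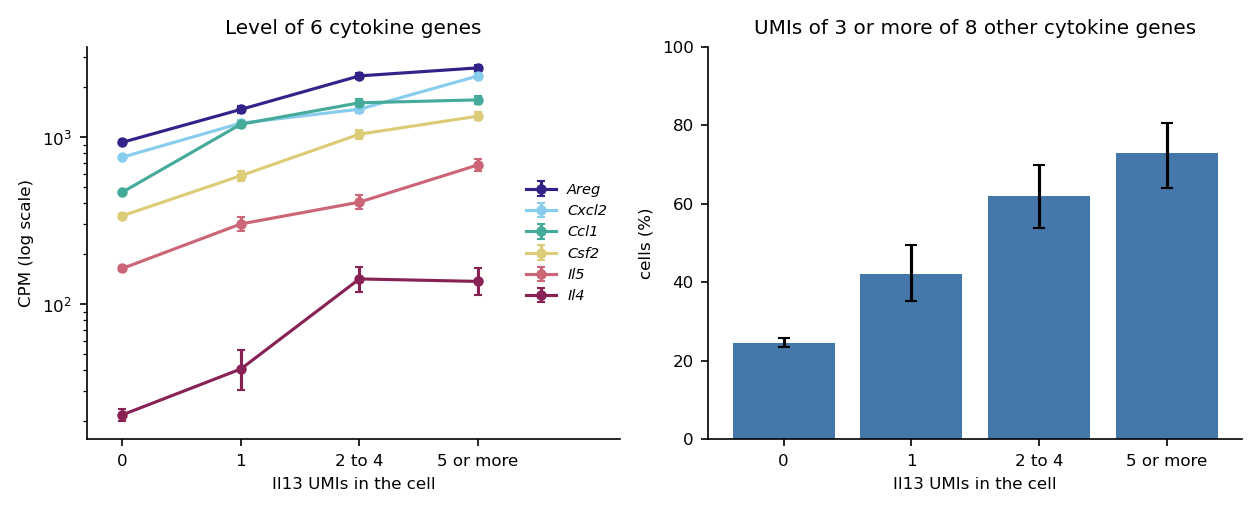
Left, CPM (log scale) of 6 cytokine genes in naïve cells with 0, 1, 2 to 4, and 5 or more *Il13* UMIs, with exact Poisson 95% intervals. Right, percentage of cells with UMIs of at least 3 of 8 other cytokine genes after thinning to 2000 UMIs, with exact binomial 95% intervals. The share goes from 24.6% to 73.0% across the classes.

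Genes of activation and immediate early response formed the next group. Of 45 listed genes that reached 30 CPM, 14 were higher, none was lower and 31 were not called, with a median fold of 1.29. Over all 4605 genes, 3.15% were higher and 2.08% lower. With the minimum on both sets together, 11 of 41 listed genes were higher, beside 2.14% over all genes. *Cd83*, *Irf4* and *Myc*, which reached 30 CPM only in positive cells, were no longer among them. *Cd83*, a surface marker of activated lymphocytes, had the largest fold (3.93; 33.2 against 8.45 CPM). *Irf4*, a transcription factor induced by antigen receptor and alarmin signals, was at 67.4 against 22 CPM (3.06-fold). *Bcl2a1b*, an anti-apoptotic NF-κB target, was 2.53-fold higher, though its reads are hard to separate from those of its near-identical copy *Bcl2a1d* (1.49-fold, not called). *Egr3* (2.32-fold), *Rel* (1.78-fold), *Nr4a3* (1.76-fold), *Nr4a2* (1.71-fold) and *Nr4a1* (1.59-fold), encoding factors downstream of calcium and NF-κB signals, were also called. *Nr4a1* was already abundant in comparison cells, at 862 CPM against 1372 in positive cells.

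*Atf3* (1.82-fold), *Myc* (1.83-fold) and *Dusp5* (1.57-fold) were called as well, whereas some immediate early genes were not. *Fos* (0.89-fold), *Jun* (0.81-fold), *Dusp1* (0.98-fold) and *Cd69* (1.01-fold) were among those not called. Of 12 genes that respond to tissue dissociation, 1 was higher (*Egr1*, 1.53-fold) and 2 were lower, the heat shock genes *Hspa1b* (0.58-fold) and *Hsph1* (0.64-fold). The median fold of these 12 was 0.933, and over all 4605 genes 3.15% were higher and 2.08% lower.

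**Figure D4:**
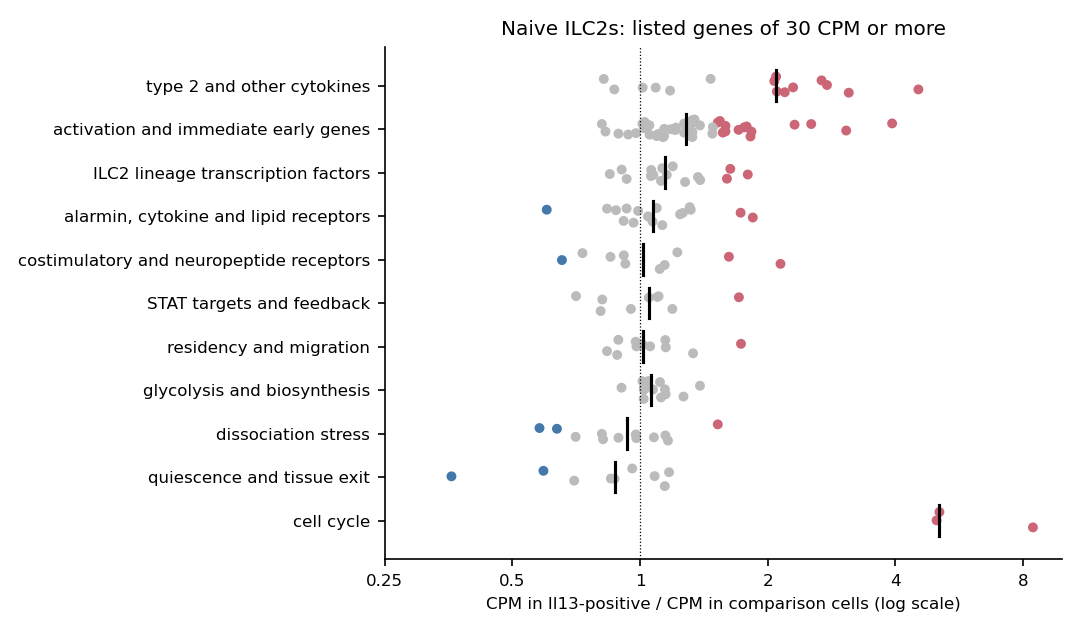
Fold of CPM in *Il13*-positive over comparison naïve cells (x axis, log scale) for every listed gene of at least 30 CPM, by list. Red points were called higher, blue points lower and grey points were not called, and black bars are list medians. The cytokine median (2.09) and the activation median (1.29) lie above the 0.964 of all genes, while glycolysis has no called gene.

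Lists of ILC2 identity, receptors and metabolism, other than inhibitory receptors, had median folds of 1.02 to 1.14. Their difference from the lists above was not tested. Over all 4605 genes, 3.15% were higher and 2.08% lower, and the counts below stand beside these shares. Of 16 lineage transcription factor genes, 3 were higher, *Zbtb16* (1.80-fold), *Tcf7* (1.63-fold) and *Nfil3* (1.60-fold), and 13 were not called. *Tcf7* reached 30 CPM only in positive cells. *Zbtb16* and *Tcf7* were below 1 (0.78-fold and 0.70-fold) when *Il1rl1* was required of neither set, so their direction depended on that choice. *Rora*, needed for ILC2 development, was at 3685 against 3085 CPM and was not called. Of 17 alarmin, cytokine and lipid receptor genes, *Il18r1* (1.85-fold, 0.82-fold with no *Il1rl1* requirement) and *Il2rb* (1.73-fold) were higher and *Alox5* (0.60-fold) was lower. *Tnfrsf9*, encoding the costimulatory receptor 4-1BB, was 2.14-fold higher, *Tnfrsf1b* 1.62-fold higher and *Icosl* 0.65-fold, among 10 costimulatory and neuropeptide receptor genes. *Pdcd1*, encoding the inhibitory receptor PD-1, was at 97.8 against 60.5 CPM (1.62-fold). It was the only 1 called of 3 inhibitory receptor genes that reached 30 CPM, and their median fold was 1.33. *Jak2* (1.71-fold) was called among 9 genes of STAT signalling and *Ccr4* (1.73-fold) among 11 of residency and migration. None of 14 genes of glycolysis and biosynthesis was called. Of 9 genes of quiescence, *Txnip* (0.36-fold) and *Lef1* (0.59-fold) were lower.

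Class II antigen presentation genes had the largest folds named, but the 3 genes below reached 30 CPM only in positive cells. Few cells carried them, and the folds depended on the cells compared. *H2-Aa* was at 38.3 against 3.18 CPM (12.1-fold), *H2-Eb1* at 37.7 against 4.18 CPM (9.01-fold) and *Cd74*, the class II invariant chain, at 120 against 14 CPM (8.55-fold). At least 2 of the 3 genes *H2-Aa*, *H2-Ab1* and *H2-Eb1* were detected in 22 of 477 positive cells (4.61%) and 31 of 4606 comparison cells (0.673%). Of these 22 cells, 18 had an *Il1rl1* UMI. The 10 cells with most *H2-Aa* held 77.5% of its UMIs. With *Il1rl1* required of neither set, *H2-Aa* was at 3.24-fold, *H2-Eb1* at 3.68-fold and *Cd74* at 3.4-fold, below the 4.50-fold that was the lowest of *Il4* over all settings. These values still lay above the lowest of *Ccl1* (3.11-fold), *Csf2* (2.72-fold) and *Il5* (2.60-fold). Myeloid markers summed to 7.35 CPM and B cell markers to 44.4 CPM in positive cells, against 13.8 and 57.0 CPM, with 3 of 9 and 2 of 6 genes at 0. *Ighm* was the most abundant, at 34.8 CPM.

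Cell cycle genes were concentrated in the same manner. *Top2a* was at 73.8 against 14.5 CPM (5.09-fold), *Mki67* at 43.8 against 8.74 CPM (5.01-fold) and *Stmn1*, a tubulin regulator high in dividing cells, at 85.6 against 19.9 CPM (4.30-fold). Cycling cells, with 2 or more of 12 cell cycle genes detected, numbered 29 among the positive (6.08%) and 115 among the comparison cells (2.50%). The 10 cells with most *Mki67* held 92.7% of its UMIs. Without cells carrying T cell receptor, NK or type 17 genes, which left 266 positive and 2959 comparison cells, *Top2a* was at 0.94-fold and *Mki67* at 0.59-fold, so the direction of both turned. *Stmn1* had a log2 fold of 0.38 without cycling cells. None of the cell cycle genes reached 30 CPM over both sets together. Removal of the cells carrying T cell receptor, NK or type 17 genes left *H2-Aa* at 5.36-fold, *Il4* at 6.48-fold and *Il5* at 2.63-fold. Without cycling cells, an alternative chosen after seeing the data, the log2 folds of *Il4*, *Ccl1*, *Csf2* and *Il5* were 2.22, 1.68, 1.54 and 1.48, against 2.18, 1.64, 1.47 and 1.42 with them.

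Among the 10 smallest folds were *Txnip*, the epithelial secretory gene *Scgb1a1* and several genes without a common role in lymphocytes. *Scgb1a1* was at 49.5 against 266 CPM, yet its transcripts were detected after thinning in 7.17% of positive and 7.75% of comparison cells. The sums thus differed more than the shares of cells, and how its UMIs were spread over comparison cells was not tested. *St5*, *Zc3h6*, *Pde11a*, *Nr3c2*, *Olfr1258*, *Mitf* and *Nyap2* had folds of 0.431 to 0.506. Genes called lower spanned a median of 78.1 kb of genome, against 25.6 kb for genes called higher and 33.4 kb for all 4605, and the part of gene length in these calls was not tested.

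Whether the same genes accompany *Il13* outside the naïve library was asked in the 4 tumour libraries. Their counts did not enter the choice of the 477 cells, although earlier results of these libraries were known when the gene lists were drawn up. Cells with an *Il1rl1* UMI were split by an *Il13* UMI after thinning to 2000 UMIs. Their whole counts were summed per library and tested with edgeR's quasi-likelihood test, with library as a block. Positive and negative cells numbered 790 and 89 in ta-non-activated week 2, 17 and 349 in ta-non-activated week 3, 384 and 48 in ta-activated week 2, and 1479 and 249 in ta-activated week 3. Before thinning, cells without an *Il13* UMI numbered 31, 345, 10 and 78 in the same order. Most negative cells outside ta-non-activated week 3 thus held *Il13* UMIs that thinning removed, whereas naïve comparison cells had none. Positive cells were deeper in every library, from medians of 3169 against 3050 UMIs in ta-non-activated week 3 to 25149 against 11108.5 in ta-activated week 2. Of 9608 genes tested, 128 (1.33%) were higher and 70 (0.729%) lower at an adjusted p under 0.05, and 56 and 36 of these moved the same way in all 4 libraries. With every cell thinned to 2000 UMIs before summing, 16 were higher and 6 lower. With the *Il13* UMI called in the whole cell, 178 were higher and 61 lower. The positive sum of ta-non-activated week 3 held 63937 UMIs, and 22 of the 36 genes lower in all 4 libraries had no UMI in it, so that library added little to the direction of those 22. Leaving out ta-activated week 3 gave 47 and 23 calls, leaving out ta-non-activated week 2 gave 73 and 42, and leaving out ta-non-activated week 3 gave 95 and 28.

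*Il5* had the largest rise among genes that were higher in all 4 libraries. It was at 1331 against 160 CPM in ta-non-activated week 2, 1911 against 158 in ta-non-activated week 3, 2696 against 493 in ta-activated week 2 and 1215 against 243 in ta-activated week 3. The positive values of all libraries lay above all negative values. Its log2 fold was 2.78 (SE 0.157, edgeR adjusted p = 3.23e-18), higher in 4 of 4 libraries.

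*Areg*, a growth factor of epithelial repair, was at 369 against 108, 2851 against 879, 2021 against 729 and 670 against 278 CPM in the same order. Levels differed more between libraries than within them, but each positive value exceeded its own negative value. The log2 fold was 1.5 (SE 0.142, edgeR adjusted p = 1.19e-10). *Csf2* was at 1485 against 389, 298 against 156, 143 against 62.3 and 238 against 116 CPM, with a log2 fold of 1.33 (SE 0.174, edgeR adjusted p = 1.02e-06). *Cxcl2*, a neutrophil chemokine, was at 102 against 3.71, 2914 against 1889, 78.9 against 24.4 and 3.06 against 1.38 CPM, with a log2 fold of 1.51 (SE 0.280, edgeR adjusted p = 6.67e-04). These 4 genes were thus higher beside *Il13* in every tumour library as in the naïve one. The calls of *Il5*, *Areg* and *Csf2* held in 11 of 12 alternatives, thinned sums included, and that of *Cxcl2* held in 9 but not with thinned sums (log2 fold 0.52).

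**Figure D5:**
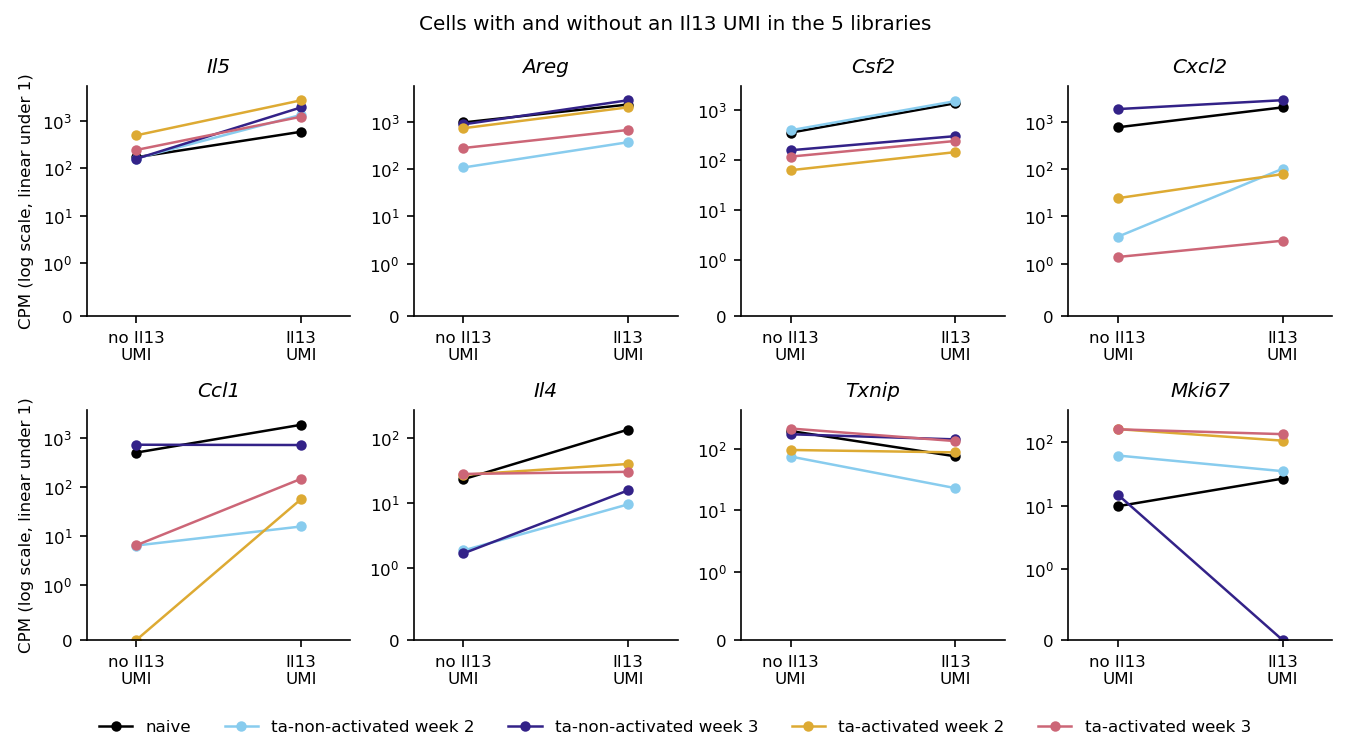
CPM (log scale, linear under 1) of 8 genes in cells without and with an *Il13* UMI after thinning to 2000 UMIs, among cells with an *Il1rl1* UMI. Each line is 1 of the 5 libraries. *Il5*, *Areg*, *Csf2* and *Cxcl2* are higher in the positive cells of all 5, *Ccl1* is flat in ta-non-activated week 3, and *Mki67* is higher only in the naïve line.

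*Ccl1* rose as well (log2 fold 2.18, SE 0.401, edgeR adjusted p = 6.02e-04), in 3 of 4 libraries, and was at 721 against 731 CPM in ta-non-activated week 3. It was at 15.8 against 6.49 CPM in ta-non-activated week 2. In the ta-activated libraries it was at 57.1 against 0 (week 2) and 148 against 6.56 CPM (week 3). The fitted fold of *Ccl1* thus depends in part on the prior count. Its call held in 8 of 12 alternatives, and its direction turned without the library block. Of 20 cytokine genes tested, 8 were higher and none lower, beside 1.33% higher and 0.729% lower over all genes tested. Their median log2 fold was 0.89 against -0.01 over all genes. *Tnf* was among the 8 (log2 fold 1.16, SE 0.194, edgeR adjusted p = 1.46e-04), although it was not called in naïve cells. *Il6* (higher in 2 of 4 libraries) and *Il9* (higher in 3 of 4) were the others, both at 0 in the ta-non-activated week 3 sums and at or under 4 CPM in naïve cells. *Lif* (log2 fold 0.79, edgeR adjusted p = 0.0917), *Il2* (log2 fold -0.88, adjusted p = 0.573) and *Ccl5* (log2 fold -0.49, adjusted p = 0.389), all called higher in naïve cells, did not pass. *Il2* was lower in 3 of 4 tumour libraries. *Il4*, with the largest cytokine fold in naïve cells, did not pass (log2 fold 0.53, SE 0.239, edgeR adjusted p = 0.386). It was at 9.54 against 1.85, 15.7 against 1.67, 39.9 against 27.1 and 30.2 against 28.0 CPM, higher in 4 of 4 libraries. The difference between naïve and tumour libraries was not tested.

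Markers of other cell types also moved with the positive cells of the tumour libraries. *Il22*, a cytokine gene on the type 17 list and the only 1 of its 6 genes tested, was higher (log2 fold 5.38, SE 0.356, edgeR adjusted p = 8.87e-16). It was at 286 against 0, 0 against 0, 4.50 against 0 and 228 against 9.32 CPM, so it was higher in 3 of 4 libraries, and its fitted fold depends on the prior count. In naïve cells it was at 0 against 0.502 CPM. *Gzma*, a granzyme gene on the NK list, of which 2 of 9 were tested, was also called (log2 fold 2.03, edgeR adjusted p = 0.0332). It was higher in 2 of 4 libraries and at 0 against 67.0 CPM in ta-non-activated week 3. Of 8 T cell receptor and CD3 genes tested, *Cd3g* was higher and *Tcrg-C1* lower, beside 1.33% and 0.729% over all genes tested. Without cells carrying genes of these lymphocytes, 103 genes were higher and 78 lower.

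Of the 49 activation genes tested, 18 were higher and none lower, beside 1.33% higher and 0.729% lower over all genes tested. Their median log2 fold was 0.55. *Cd83* (log2 fold 1.62, SE 0.411, edgeR adjusted p = 0.0221), *Nr4a1* (log2 fold 0.98, adjusted p = 0.0241) and *Rel* (log2 fold 0.79, adjusted p = 0.0177) were higher in all 4 libraries, as they were called in naïve cells. *Myc*, *Pim1*, *Batf*, *Atf3* and *Egr1* were called in the tumour and in the naïve libraries. *Batf*, *Atf3* and *Egr1* were each higher in 3 of the 4 tumour libraries. *Furin*, a protease gene induced by STAT signals, *Nfkbia*, *Tnfaip3* and *Junb* passed in the tumour libraries and were not called in naïve cells. *Irf4* (edgeR adjusted p = 0.163), *Egr3* (0.0665) and *Nr4a3* (0.0503) did not pass. *Irf4* did pass in 4 of 12 alternatives, with a lowest adjusted p of 0.00444 without ta-activated week 2. *Jak2* (log2 fold 0.98) and *Il2ra* (log2 fold 0.77), the high-affinity IL-2 receptor chain, were higher in all 4 libraries. *Gata3* (log2 fold 0.18, adjusted p = 0.774) and *Il1rl1* (log2 fold -0.26, adjusted p = 0.631) did not pass. *Txnip* was lower (log2 fold -0.74, SE 0.191, edgeR adjusted p = 0.0256) in 4 of 4 libraries, as in naïve cells. The calls of *Cd83*, *Nr4a1*, *Rel* and *Txnip* held in 5, 4, 3 and 6 of 12 alternatives.

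None of 12 cell cycle genes passed, with a median log2 fold of -0.32, and *Mki67* was lower in 4 of 4 libraries (log2 fold -0.50, edgeR adjusted p = 0.196). In ta-non-activated week 3 *Mki67* was at 0 against 15.1 CPM, so that small library added little to its direction. *H2-Aa* (edgeR adjusted p = 0.673), *H2-Eb1* (0.171) and *Cd74* (0.0686) did not pass either. All 3 were higher in 3 of 4 libraries and lower in ta-activated week 2, where *H2-Aa* was at 10.8 against 63.2 CPM. In ta-activated week 3, *H2-Aa* was at 0.288 and *H2-Eb1* at 0.683 CPM, each against 0, so their direction there rests on little. *Tnfsf8*, 4.14-fold higher in naïve cells, had a log2 fold of 0.20 (edgeR adjusted p = 0.837).

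Of the 128 genes that rose in the tumour libraries, 56 reached 30 CPM in naïve cells and so could be called there. Of these 56, 33 were called higher in naïve cells and none lower, beside the 3.15% called higher over all naïve genes, but some had reached 30 CPM through the positive cells alone. With the minimum on both sets together it was 24 of 45, beside 2.14% over all genes. The 33 were 25.8% of the tumour calls and 22.8% of the 145 naïve calls. Of the 70 genes that fell, 23 reached 30 CPM in naïve cells, and 1 of them, *Txnip*, was called lower, beside 2.08% over all naïve genes. Among genes with the same direction in all 4 libraries, those with the largest rises after *Il5* were *Ptgs2*, *Akap12*, *Adgrg7*, *Cd83*, *Bcl2a1d*, *Dusp2*, *Cxcl2*, *Areg* and *Tagap*, at log2 folds of 2.70 to 1.38. *Ptgs2* encodes cyclooxygenase-2, and *Dusp2* a phosphatase of MAP kinases. *Ptgs2* had no UMI in 3 of the 4 negative sums, so its fold depends on the prior count. Its call held in 4 of 11 alternatives, that of *Akap12* in 3 of 7 and that of *Adgrg7* in 2 of 7. The 10 largest falls were of *Perp*, *Ephx1*, *Epcam*, *Sgk1*, *Serpine2*, *Clic5*, *Cd27*, *Mei4*, *Abcd4* and *Ttc28*, at log2 folds of -2.38 to -1.18. Of these 10, 8 had no UMI in the positive sum of ta-non-activated week 3, and the calls of *Clic5* and *Abcd4* held in 1 of 6 and 2 of 11 alternatives. *Cd27*, a TNF receptor of lymphocytes, was at 39.9 against 46.0 CPM in naïve cells and was not called there.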

How the data were processed

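Lung ILC2s were profiled with 10x Chromium 3′ v3.1 libraries in 5 samples (naïve, and ta-non-activated and ta-activated at week 2 and week 3). The deposited matrices hold UMI counts per gene and barcode, made by the authors with Cell Ranger (3.0.2 per the labels; the naïve header names 6.0.0) on GRCm38, with Seurat 3 downstream. Totals were 33522126 UMIs in the naïve library and 9910201 to 71126524 in the others. The 27726 genes common to all matrices were used.

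The cells and gene lists were chosen with earlier results of these data known. Counts were summed over cells without *Il13*, given as CPM with exact Poisson 95% intervals, and shares with Clopper-Pearson intervals. A gene was called in the naïve library at 1.5-fold with separate intervals and 30 CPM or more in the higher set. No doublets were removed in the main values; Scrublet's top 6% took 4.82% of positive and 6.75% of comparison cells and were left out in an alternative. Named genes were the 15 largest and 10 smallest naïve folds that kept direction after thinning (seed 1; mt-, Rps, Rpl and Gm genes and genes with over 25% of UMIs from 1 cell left out), the 10 largest changes each way of the tumour test moving alike in 4 libraries, and list genes. The *Lilrb4a* and *Aldoa* entries of the lists had no matching symbol. A gene that the rule names is not reported here. Cell types were read from marker genes, without clustering.

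For the tumour libraries, edgeR 4.0.16 (R 4.3.3; TMM, filterByExpr, quasi-likelihood test, Benjamini-Hochberg over all genes) compared 4 pairs of sums, each pair from 1 library, which is where the pairing comes from. Nothing states that libraries are separate cultures beyond week and state, so p-values measure the spread between these 4 libraries. SEs were derived from the F statistic. On simulated counts for this comparison (9397 genes, 200 changed), 73.7% of genes changed by 1 on the log2 scale and 96.9% of those changed by 2 were recovered, with 2 false calls. The simulated counts held no effect of cell depth or cell type, so false calls from these were not measured. DESeq2 1.42.0 was an alternative. Promoters came from RefSeq and positions from GENCODE M21.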

Additional observations from a re-analysis of the deposited data

Results flagged for a closer look

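*Bcl2a1b* and *Ccl5* differed in sign between the 2 ta-non-activated and the 2 ta-activated libraries, and these differences were not tested. For *Bcl2a1b*, the log2 difference between *Il13*-positive and negative cells was -0.14 and -0.46 in the ta-non-activated libraries (week 2, week 3) and 1.68 and 1.56 in the ta-activated libraries, so the mean of the former minus the latter was -1.92. For *Ccl5*, it was 0.29 and 0.38 in the ta-non-activated and -1.75 and -0.07 in the ta-activated libraries, a difference of 1.246. In naïve cells, both genes were called higher (2.53-fold and 2.07-fold). The positive cells of ta-non-activated week 3 held 2 UMIs of *Bcl2a1b* and 8 of *Ccl5*, and *Ccl5* hardly differed in ta-activated week 3, so the signs rest on little.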

How the results depend on the processing

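In naïve cells, 145 genes were called higher and 96 lower. The lower count became 181 when each cell was thinned to 2000 UMIs, 331 with at least 2 *Il13* UMIs and 280 without cells carrying genes of other lymphocytes. A fold of 1.2 gave 441 higher and 654 lower, a fold of 2 gave 45 and 8, a minimum of 10 CPM gave 254 and 346, and a minimum of 100 CPM gave 57 and 13. A minimum of 30 CPM over both sets together, chosen after seeing the data, gave 95 and 87. The listed genes called lower came to 14 with *Il1rl1* required in neither set and 5 without cycling cells, an alternative chosen after seeing the data. The share of naïve cells with an *Il13* UMI was 4.54% and 3.11% at 2000 and 1000 UMIs, 4.30% for at least 2 UMIs and 8.34% among cells with *Il1rl1*. Without cells carrying genes of other lymphocytes, naïve log2 folds turned for *Top2a* (-0.0889), *Mki67* (-0.76), *Cd7* (-1.14) and *Ube2c* (-2.24). With *Il1rl1* required in neither set they turned for *Ccl5* (-0.29), *Cd7* (-0.12), *Il18r1* (-0.28), *Tcf7* (-0.51) and *Zbtb16* (-0.35). The cause of these changes was not tested.

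In the tumour libraries, 128 genes were higher and 70 lower. Without the replicate block (library), edgeR called 0 and 0, with 48 genes at an unadjusted p under 0.05, and the log2 folds of *Ccl1* (-0.0876) and *Bcl2a1b* (-0.0463) turned. DESeq2 called 42 and 10, and thinned cells summed gave 16 and 6. Leaving out 1 library each gave 47 to 154 higher and 23 to 99 lower genes, with the lowest counts, 47 and 23, without ta-activated week 3. Without ta-non-activated week 2 they were 73 and 42, and 28 genes were lower without ta-non-activated week 3, whose positive sum rests on 17 cells. *Tnfsf8* turned with thinned cells summed (-0.25) and with a *Gata3* gate (-0.14), as did *Mei4* with the latter (0.0249). Over 12 alternatives, adjusted p for *Il5* ran from 1.59e-72 to 0.99988, the highest being the fit without the block. Depth limits low genes most in ta-non-activated week 3.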
